A study of Mus musculus with 30 samples.

Results

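The genes described here carry out fatty acid oxidation or are classical targets of the nuclear receptor PPAR-alpha. They were taken from a list of 36 genes, and for each the probe set annotated to that gene alone was used, or the one with the highest mean over all 30 arrays where a gene had more. In this way 32 of the 36 genes were measured, 17 of 18 mitochondrial members, 8 of 9 peroxisomal members and 7 of 9 members with a role in regulation or uptake. Cpt1b and Acot8 were covered only by probe sets that carry several gene symbols, and no probe set was annotated to Ucp2 or Acsl1, so these 4 genes were not analysed. Of the measured genes Crat had 2 probe sets of its own and the others had 1.

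Gene expression was measured in perigonadal white adipose tissue (gWAT), the visceral fat depot beside the testes, on single-colour arrays with 41345 probe sets, in wild-type male C57BL6/J mice that were all 35 weeks old. There were 5 diet groups of 6 arrays, 1 mouse per array. Formerly obese-HFD mice received a high-fat diet (HFD, 58% of energy from fat) for 20 weeks, control diet (10.5% of energy from fat) for 7 weeks and then HFD for 48 h. Formerly obese mice had the same 20 weeks of HFD and 7 weeks of control diet without the last 48 h. Obese mice were on HFD for 27 weeks. Lean-HFD mice had control diet for 27 weeks and then their first HFD for 48 h, and lean mice had control diet for 27 weeks throughout. The gWAT is a mixed tissue, so fewer cells of a type and less RNA per cell cannot be told apart in any value below. All levels are log2 expression values as deposited, and all differences are log2 differences of group means with the SE of the limma fit, on 6 arrays per group.

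Mitochondria take up long-chain fatty acids as carnitine esters, through the transferase Cpt1a on the outer membrane, the carrier Slc25a20 and the transferase Cpt2, and shorten them by beta-oxidation, while peroxisomes shorten very long and branched chains with enzymes of their own. PPAR-alpha, encoded by Ppara, binds fatty acids as ligands and, with its partner RXR, binds DNA at repeated hexamers of the type AGGTCA near genes such as Pdk4, Angptl4, Vnn1 and Cpt1a. White adipocytes store more fat than they burn, and PPAR-alpha is best known for its work in liver, while Angptl4, Pdk4 and Cd36 are also targets of the related receptor PPAR-gamma in fat.

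Markers of other tissues differed between single arrays and are given here because they touch several results. The mean of 15 hepatocyte genes ran from 5.05 to 6.94 in formerly obese-HFD, 4.76 to 6.77 in formerly obese, 4.62 to 5.65 in obese, 5.56 to 9.95 in lean-HFD and 4.91 to 8.17 in lean arrays, and it was above 8 in lean-HFD 1, 2 and 4 and in lean 4. The mean of 7 brown adipocyte genes was above 6.5 in formerly obese 2 and 6, obese 4 and lean 6, where it reached 7.54. The mean of 8 macrophage genes was 8.89 to 9.80 in obese and 7.89 to 8.26 in lean arrays, and that of 10 mature adipocyte genes was 10.60 to 11.04 in obese and 11.12 to 11.25 in lean arrays, so that neither overlapped between these groups. Adipoq, the defining adipocyte hormone, was high in every group, with medians between 11.43 and 11.73. Its obese arrays, at 11.21 to 11.48, nevertheless all lay below its lean arrays, at 11.66 to 11.74.

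Obese mice were first compared with lean mice, the contrast of the long diet. In obese mice 3 members rose, namely Pdk4, Angptl4 and Cpt1a, and 3 fell, namely Eci3, Acot2 and Eci1. A member was called where the adjusted p was under 0.10, the fold exceeded 1.3 and the mean level exceeded 16 (4 on the log2 scale) in at least 1 of the groups. The median over all probe sets ran from 4.85 to 4.97 between arrays. Acot2 (4.85), Ppara (4.91) and Vnn1 (5.03) had obese means near it, as Vnn1 had in lean mice (4.89). Eci3 was below it in obese 3 (4.68) and obese 6 (4.09). By this rule 6 of 32 members (18.8%) were called, against 6.04% of all 41345 probe sets (3.93% higher and 2.11% lower). In 4 of 32 members obese and lean arrays did not overlap at all, against 4.64% of all probe sets. The called members were 3 of 17 mitochondrial, 1 of 8 peroxisomal and 2 of 7 regulatory genes.

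Pdk4, the kinase that shuts the pyruvate dehydrogenase complex and so spares glucose, measured 8.81 at the lowest, 9.32 at the median and 9.83 at the highest in obese arrays, against 7.54, 7.85 and 9.11 in lean arrays. Obese and lean arrays overlapped through a single array, lean 6, which stood more than 1 log2 unit above the other lean arrays. Pdk4 was 2.49-fold higher in obese mice (1.31 ± 0.25, adjusted p = 0.00774, 6 of 6 arrays above the lean mean). Angptl4, a secreted inhibitor of lipoprotein lipase, measured 9.12, 9.40 and 9.55 in obese arrays, against 7.86, 8.55 and 9.03 in lean arrays. All obese arrays lay above all lean arrays, and Angptl4 was 1.88-fold higher (0.91 ± 0.17, adjusted p = 0.00800). Neither regulatory gene lost its call when any single array was left out.

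Among the mitochondrial members, Cpt1a, whose product is the gate for long-chain fatty acids, measured 8.21, 8.50 and 8.52 in obese arrays, against 7.88, 8.02 and 8.08 in lean arrays. The lean arrays lay close together and below every obese array, with a difference of 0.42 ± 0.08 (1.33-fold, adjusted p = 0.00829). Acot2, a thioesterase of the mitochondrial matrix that frees fatty acids from coenzyme A, measured 4.61, 4.87 and 5.09 in obese arrays, against 5.13, 5.34 and 5.54 in lean arrays. Every obese array was below every lean array, and Acot2 fell by 0.49 ± 0.10 (adjusted p = 0.0103). Acot1 and Acot2 are near-identical neighbouring genes, so their probe sets may share signal and their values are uncertain as single-gene measurements. Eci1, an isomerase needed for unsaturated fatty acids, measured 8.52, 8.65 and 9.18 in obese arrays, against 8.95, 9.09 and 9.35 in lean arrays. Only obese 1 reached into the lean range, and Eci1 fell by 0.40 ± 0.12 (1.32-fold, adjusted p = 0.0632). The call on Eci1 was lost without lean 2, lean 3, lean 6, obese 2, obese 3, obese 5 or obese 6, each left out in turn, with an adjusted p of at most 0.141, and with the hepatocyte score as a covariate (-0.43, adjusted p = 0.158).

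The other 14 mitochondrial members were not called. The difference that came nearest was that of Hadh, the dehydrogenase for shorter acyl chains, at -0.30 ± 0.09 (adjusted p = 0.0737), which at 1.23-fold was left out by the fold filter. Over all 17 mitochondrial members 9 differences were above 0 and 8 below, with a median of 0.08 (all probe sets -0.02). Both subunits of the trifunctional protein, Hadha (0.16 ± 0.08) and Hadhb (0.23 ± 0.14), and the dehydrogenases Acadm (0.11 ± 0.08), Acadl (0.09 ± 0.10) and Acadvl (-0.29 ± 0.12) did not pass, with adjusted p between 0.216 and 0.715. The electron transfer genes Etfa (-0.08 ± 0.08), Etfb (-0.12 ± 0.08) and Etfdh (0.08 ± 0.09) did not pass either.

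Among the peroxisomal members Eci3, an enoyl-CoA isomerase of rodents related to Eci2, was the one called. It measured 4.09, 5.66 and 6.71 in obese arrays, against 6.77, 7.02 and 7.74 in lean arrays. The obese arrays were spread over more than 2 log2 units and all lay below the lean arrays. Eci3 was 3.08-fold lower in obese mice (-1.62 ± 0.37, adjusted p = 0.0214), and it had the largest difference of the 32 members in this comparison. Its neighbour and paralogue on chromosome 13, Eci2, differed by -0.18 ± 0.08 (adjusted p = 0.293). Ehhadh and Hsd17b4, the multifunctional enzymes of the peroxisome, differed by -0.24 ± 0.22 and 0.09 ± 0.07, the oxidase Acox3 by 0.07 ± 0.11, the thiolase Acaa1a by -0.01 ± 0.07, the reductase Decr2 by 0.01 ± 0.08 and Pex11a, which acts in peroxisome division, by -0.20 ± 0.14. None of these 7 genes passed (adjusted p from 0.293 to 0.985).

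The remaining regulatory and uptake members were not called in obese against lean mice. Ppara itself was low, at 4.71 to 5.20 in obese and 4.67 to 5.82 in lean arrays, and differed by -0.34 ± 0.16 (adjusted p = 0.269). Cd36, the fatty acid translocase, lay between 12.44 and 12.53 in obese and between 12.43 and 12.55 in lean arrays, a difference of -0.01 ± 0.06. Vnn1 (0.14 ± 0.21), the mitochondrial carrier Ucp3 (-0.17 ± 0.17) and the cytosolic thioesterase Acot1 (-0.29 ± 0.30) did not pass.

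**Figure D1:**
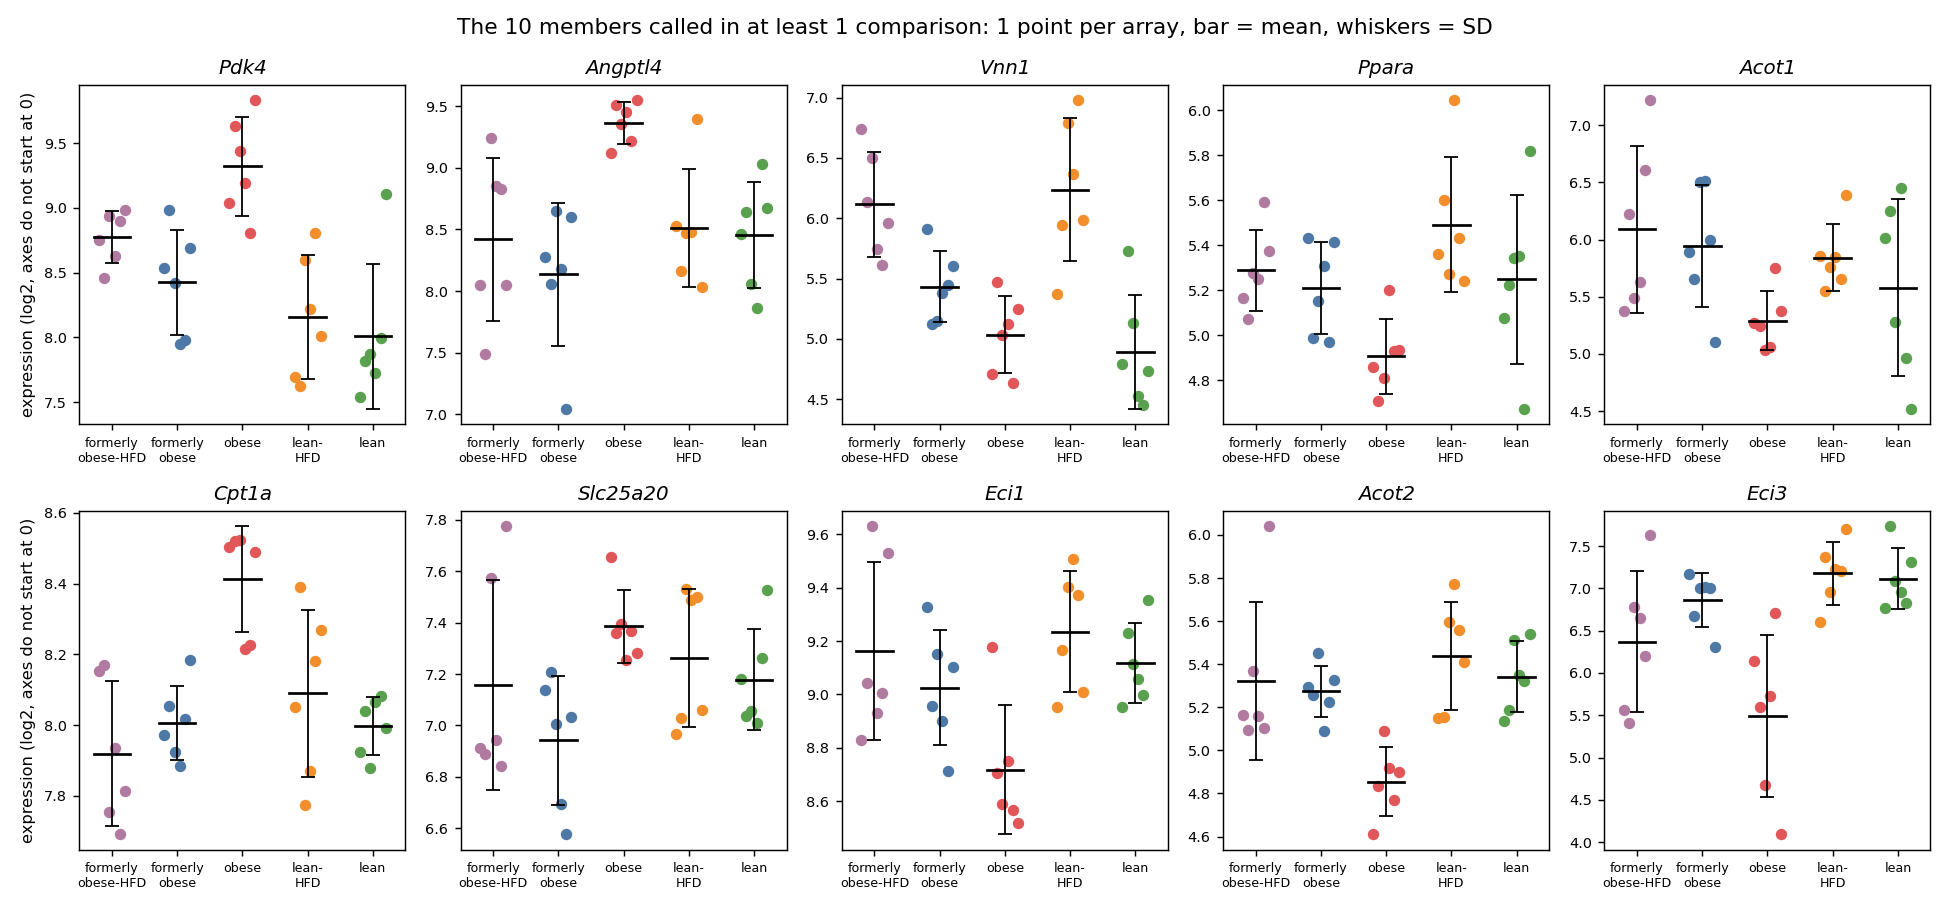
Expression (log2) of the 10 members called in at least 1 comparison, 1 point per array, in formerly obese-HFD, formerly obese, obese, lean-HFD and lean mice, with the mean (bar) and SD (whiskers) of 6 arrays. Pdk4, Angptl4 and Cpt1a are highest in obese mice, Eci3, Acot2 and Eci1 are lowest in obese mice, and Vnn1 is highest in the groups with 48 h of HFD.

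To show the DNA upstream of members that were called together, the promoter windows of Cpt1a, Pdk4 and Slc25a20, which were higher in obese than in lean mice or lower in formerly obese than in obese mice, are printed beside those of Acot2 and Eci3, which were called in the other direction. Each is the window that the RefSeq table for GRCm38.p6 holds, from 250 bases before to 50 bases after a start site, 5′ to 3′ on the gene's strand. For Pdk4, Slc25a20 and Acot2 that site is the outer end of the annotated gene, while for Cpt1a it lies 975 bases and for Eci3 179 bases inside the gene. Capitals mark a match to the searched motifs, which were AGGTCANAGGTCA with at most 2 mismatches and the single hexamer AGGTCA, both on either strand. The hexamer is part of the longer motif, and TGACCT is its reverse complement.
Pdk4 (chr6:5496229-5496528, minus strand): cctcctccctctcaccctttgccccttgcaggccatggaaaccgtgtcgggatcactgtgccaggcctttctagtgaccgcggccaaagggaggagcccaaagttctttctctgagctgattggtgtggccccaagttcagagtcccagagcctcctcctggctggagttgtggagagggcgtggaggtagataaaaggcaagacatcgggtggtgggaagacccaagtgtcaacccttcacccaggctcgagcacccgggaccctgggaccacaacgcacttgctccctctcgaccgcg
Cpt1a (chr19:3323051-3323350, plus strand): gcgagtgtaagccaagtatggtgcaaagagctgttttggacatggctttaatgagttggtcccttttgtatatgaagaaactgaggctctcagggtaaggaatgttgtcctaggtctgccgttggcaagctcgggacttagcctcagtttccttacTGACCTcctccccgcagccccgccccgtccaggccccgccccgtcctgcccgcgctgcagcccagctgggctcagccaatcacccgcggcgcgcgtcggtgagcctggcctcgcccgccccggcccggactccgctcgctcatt
Slc25a20 (chr9:108661886-108662185, plus strand): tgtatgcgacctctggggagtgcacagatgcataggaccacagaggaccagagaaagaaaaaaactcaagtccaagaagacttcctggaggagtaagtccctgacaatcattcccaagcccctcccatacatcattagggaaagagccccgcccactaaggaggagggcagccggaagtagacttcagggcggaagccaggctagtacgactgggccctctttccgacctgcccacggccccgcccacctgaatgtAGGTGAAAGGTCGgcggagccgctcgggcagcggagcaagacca
Acot2 (chr12:83987611-83987910, plus strand): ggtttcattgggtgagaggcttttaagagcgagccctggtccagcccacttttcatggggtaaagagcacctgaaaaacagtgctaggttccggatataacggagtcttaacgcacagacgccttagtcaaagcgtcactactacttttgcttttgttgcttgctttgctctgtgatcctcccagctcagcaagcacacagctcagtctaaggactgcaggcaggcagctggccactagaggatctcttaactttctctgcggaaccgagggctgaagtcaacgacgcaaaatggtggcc
Eci3 (chr13:34963760-34964059, minus strand): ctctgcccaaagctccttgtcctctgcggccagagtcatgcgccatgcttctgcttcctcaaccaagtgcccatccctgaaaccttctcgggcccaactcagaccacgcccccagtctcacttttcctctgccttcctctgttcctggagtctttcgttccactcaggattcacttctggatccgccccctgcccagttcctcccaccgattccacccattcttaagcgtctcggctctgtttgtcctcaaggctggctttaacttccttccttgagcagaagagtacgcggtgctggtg

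Promoter windows were at hand for 29 of the 36 listed genes, with 30 windows in all. Of these genes 4, namely Cd36, Etfa, Slc25a20 and Ucp3, held the repeat with at most 2 mismatches, which was found in 3.86% of 32851 promoter windows of the same length. The single hexamer was present in 5 genes, Acadm, Acadvl, Cd36, Cpt1a and Ucp3, and in 16.3% of all windows. No member held the exact repeat, which 13 of all windows did. A match is a description of letters in these 300 bases, and a window without one says nothing of a site elsewhere.

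Of 73 other genes of the pathway, counted beside the members, 68 were measured, and 3 of these rose and 12 fell in obese against lean mice. Together the calls were 22.1% of the 68 genes, against 6.04% of all probe sets (3.93% higher and 2.11% lower). The genes that rose were Plin2, a coat protein of lipid droplets (0.93 ± 0.11, adjusted p = 0.000692), Hilpda, a droplet protein that restrains lipolysis (1.03 ± 0.18, adjusted p = 0.0055), and the peroxisomal thiolase Acaa1b (0.52 ± 0.13, adjusted p = 0.0392). Among those that fell were the coactivators Ppargc1a (-0.87 ± 0.24, adjusted p = 0.0532) and Ppargc1b (-0.57 ± 0.10, adjusted p = 0.00669), the kinase Pdk2 (-0.69 ± 0.12, adjusted p = 0.00523), and Abcd2 (-0.74 ± 0.11, adjusted p = 0.00203) and Phyh (-0.63 ± 0.11, adjusted p = 0.00452), which import and process very long and branched fatty acids in peroxisomes. The median difference of the 68 genes was -0.10.

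Macrophage and adipocyte markers moved with these calls. In obese against lean mice 6 of 8 macrophage genes rose and 4 of 10 mature adipocyte genes fell, with a median of -0.35, and 1 of 6 mesothelial and 1 of 15 hepatocyte genes fell. With the adipocyte score as a covariate none of the 6 members was called, and the differences became 1.12 for Pdk4, 0.67 for Angptl4, 0.30 for Cpt1a, -0.60 for Acot2 and -0.31 for Eci3, while that of Eci1 turned to 0.10. Since the score separates obese from lean arrays without overlap, the group and the score cannot be told apart in that fit. The part of macrophages and mesothelial cells in the result was not tested.

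Formerly obese mice were then compared with obese mice, to show what differed after the switch to control diet, and with lean mice, to show what was left. In formerly obese against obese mice Angptl4, Pdk4, Cpt1a and Slc25a20 fell and Eci3 and Acot2 rose. These 6 calls were 18.8% of the members, against 5.19% of all probe sets (2.02% higher and 3.17% lower). The arrays of both groups did not overlap in 4 of 32 members, against 3.85% of all probe sets. The comparison shares its obese arrays with the one above, so the values are given side by side and are not a second test.

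Angptl4 measured 7.05, 8.23 and 8.65 in formerly obese arrays, with formerly obese 5 far below the rest. All 6 arrays lay below every obese array, at 2.35-fold lower expression (-1.23 ± 0.22, adjusted p = 0.0094). Pdk4 measured 7.95, 8.48 and 8.98 in formerly obese arrays, where the highest array, formerly obese 2, passed only the lowest obese array, and it fell by 0.90 ± 0.21 (1.86-fold, adjusted p = 0.0275). Against lean mice neither passed, with 0.42 ± 0.26 for Pdk4 (adjusted p = 0.807) and -0.32 ± 0.27 for Angptl4 (adjusted p = 0.869).

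Cpt1a measured 7.88, 7.99 and 8.18 in formerly obese arrays, all below every obese array, and fell by 0.41 ± 0.08 (adjusted p = 0.0155). Against lean mice its difference was 0.01 ± 0.07. Slc25a20, which exchanges acylcarnitine for carnitine across the inner membrane, measured 6.58, 7.02 and 7.21 in formerly obese arrays, against 7.25, 7.36 and 7.66 in obese arrays. The groups did not overlap, by a narrow gap, and Slc25a20 fell by 0.44 ± 0.12 (1.36-fold, adjusted p = 0.0468). Its call was lost without formerly obese 4 or formerly obese 5, the 2 lowest arrays, with an adjusted p of at most 0.102. Cpt1a and Slc25a20 are successive steps of the carnitine route, and the last enzyme of that route, Cpt2, differed by -0.03 ± 0.11 (adjusted p = 0.944).

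Acot2 measured 5.09, 5.27 and 5.45 in formerly obese arrays, the lowest of them only just above the highest obese array, and rose by 0.42 ± 0.09 (1.34-fold, adjusted p = 0.0177). Without obese 1 its difference of 0.37 no longer passed the fold filter. Eci3 measured 6.30, 7.01 and 7.17 in formerly obese arrays, 4 of which lay within the lean range. It was 2.59-fold higher than in obese mice (1.37 ± 0.37, adjusted p = 0.0525), with an overlap of formerly obese 6 and 2 with obese 5. The call on Eci3 was lost without formerly obese 1, 3 or 4 or without obese 3 (adjusted p of at most 0.109), and with the hepatocyte score as a covariate (1.27, adjusted p = 0.124). Eci1, at 8.71, 9.03 and 9.33 in formerly obese arrays, was higher than in obese mice by 0.31 ± 0.13 but did not pass (adjusted p = 0.218).

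Of the 26 members not called, 6 had an unadjusted p under 0.05, namely Acot1, Vnn1, Eci1, Ppara, Acadvl and Hadha. Over all 32 members it was 12, against 17.7% of all probe sets. Vnn1 differed by 0.40 ± 0.16 (1.32-fold, adjusted p = 0.216) and Ppara by 0.30 ± 0.11 (adjusted p = 0.141). Of 17 mitochondrial members 6 differences were above 0 and 11 below, with a median of -0.10 (all probe sets 0.01). For the 8 peroxisomal members the median was 0.01, and 7 of them differed by at most 1.3-fold. The 7 regulatory members had the widest range, between -1.23 and 0.65, the upper end being Acot1 (0.65 ± 0.22, adjusted p = 0.122). Of the 68 other pathway genes 10 rose and 4 fell, together 20.6%, against 5.19% of all probe sets (2.02% higher and 3.17% lower). Hilpda (-1.40 ± 0.17, adjusted p = 0.00104) and Plin2 (-0.77 ± 0.15, adjusted p = 0.0111) fell, and Pdk2 (0.72 ± 0.10, adjusted p = 0.00211), Ppargc1a (0.82 ± 0.22, adjusted p = 0.0564) and Acacb, which makes the malonyl-CoA that inhibits Cpt1a (0.66 ± 0.19, adjusted p = 0.0738), rose. In the same comparison 5 of 8 macrophage genes fell, with a median of -0.89, and 3 of 6 mesothelial genes (median 0.75) and 2 of 10 adipocyte genes (median 0.18) rose. The part of macrophages and mesothelial cells in the result was not tested. With the adipocyte score as a covariate the calls on Angptl4, Slc25a20 and Acot2 were kept, while Acadl was added. The calls on Cpt1a (-0.35, adjusted p = 0.143), Pdk4 (-0.80, adjusted p = 0.194) and Eci3 (0.81, adjusted p = 0.433) were lost, the first 2 at differences near those of the fit without the score.

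In formerly obese against lean mice no member was called by limma at the adjusted threshold, and neither was any of the 41345 probe sets (0%). The paper does report genes for this comparison under its adjusted threshold and fold filter. They are Vcam1, Lyz1, H2-q5, Fbn1, Nmb and Gm26523, which are not members. The reason for this disagreement was not tested. Here 2861 probe sets had an unadjusted p under 0.05. At that unadjusted level, passed by 6.92% of all probe sets, were 2 of 32 members, Vnn1 (0.54 ± 0.21, adjusted p = 0.635) and Ucp3 (-0.29 ± 0.12, adjusted p = 0.678), followed by Cpt2 (-0.19 ± 0.09, adjusted p = 0.748). Vnn1 measured 5.12, 5.41 and 5.91 in formerly obese arrays, against 4.46, 4.76 and 5.73 in lean arrays. All 6 formerly obese arrays were above the lean mean, and the groups overlapped. Of the 32 differences 24 were below 0, among them all 8 peroxisomal ones. All members were measured on the same arrays, so these signs are not independent and were not tested as a set. Their sizes were small, with a median of -0.07 for all members and -0.11 for the peroxisomal ones against -0.01 for all probe sets.

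**Figure D2:**
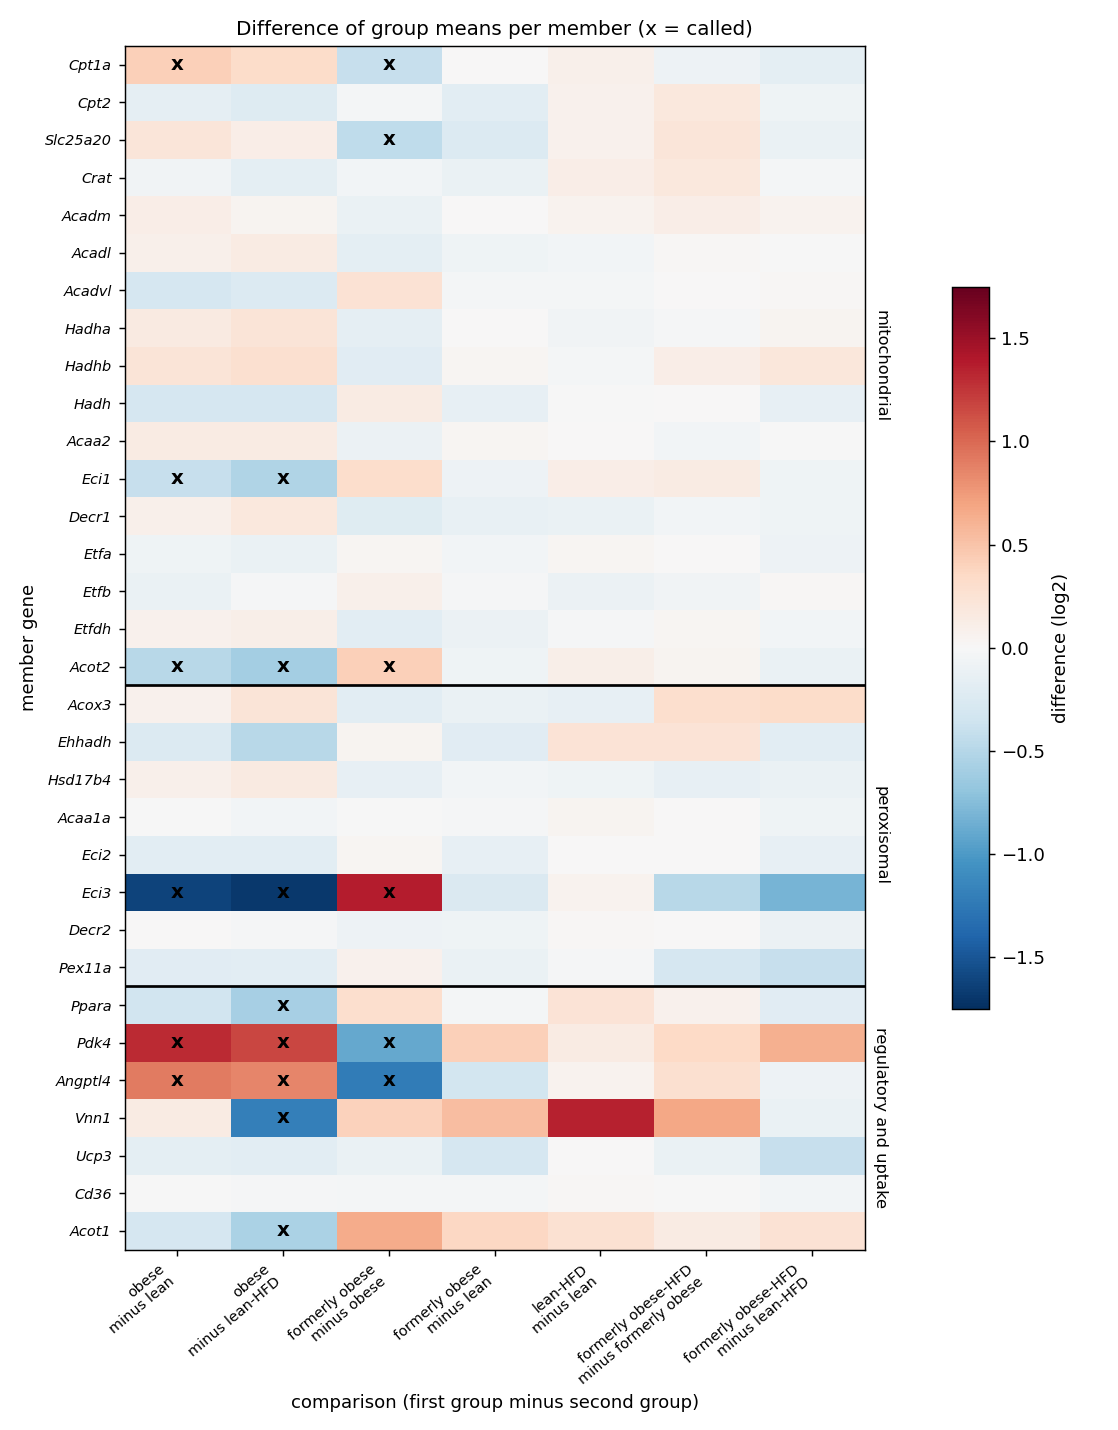
Difference of group means (log2, colour scale) for the 32 measured members in rows, grouped as mitochondrial, peroxisomal and regulatory and uptake genes, and 7 pairwise comparisons in columns, with an x where the member was called. The 20 calls lie in the 3 comparisons that include obese mice, and the columns of formerly obese against lean mice and of 48 h HFD hold none. Those 3 comparisons share their obese arrays, so their calls are not independent.

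The 48 h of HFD were compared with no HFD within each history. Vnn1, a pantetheinase and a known PPAR-alpha target in liver, had the largest difference of the members in both histories. It measured 5.62, 6.04 and 6.74 in formerly obese-HFD arrays, against 5.12, 5.41 and 5.91 in formerly obese arrays. In lean-HFD arrays it measured 5.37, 6.17 and 6.98, against 4.46, 4.76 and 5.73 in lean arrays. All 12 arrays with 48 h of HFD lay above the mean of their own comparison group, and in each history the arrays overlapped. The difference was 0.68 ± 0.20 in formerly obese mice (1.60-fold, adjusted p = 0.876) and 1.34 ± 0.28 in lean mice (2.54-fold, adjusted p = 0.786), and neither passed. Under a looser rule, which asks for an unadjusted p below 0.01 and keeps both filters, Vnn1 was the 1 member called in each, against 0.612% of all probe sets in formerly obese and 0.641% in lean mice.

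Averaged over both histories, on 24 arrays, Vnn1 rose by 1.01 ± 0.18 (2.02-fold, adjusted p = 0.0532). It was the 1 member called of 32, against 0.0556% of all probe sets, and 1 of 5 probe sets that rose (0.0121%). The call was lost without formerly obese 2, 3 or 4, lean 1, 5 or 6, lean-HFD 3 or formerly obese-HFD 1 or 3, each left out in turn, with an adjusted p of at most 0.126 and a difference between 0.94 and 1.10. Hsd17b4 (-0.10 ± 0.07, adjusted p = 0.837) and Pdk4 (0.25 ± 0.17, adjusted p = 0.853) came next and did not pass. The difference between histories in the response of Vnn1 was tested as an interaction and was -0.66 ± 0.36 (limma adjusted p = 1, and 0.0775 before adjustment). No member and no probe set (0%) passed the test of the interaction, with 1904 probe sets at an unadjusted p under 0.05. Next after Vnn1 came Acox3 (0.43 ± 0.28) and Eci3 (-0.56 ± 0.40), both at an adjusted p of 1.

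Vnn1 is also a liver transcript, and hepatocyte markers were unequal between these groups, with a median difference over 15 genes of 0.68 in formerly obese-HFD against formerly obese mice and 2.04 in lean-HFD against lean mice. In formerly obese-HFD arrays 1 to 6 Vnn1 measured 6.74, 6.13, 6.502, 5.75, 5.62 and 5.96, at hepatocyte scores of 6.91, 5.05, 5.52, 6.94, 6.78 and 5.33. In formerly obese arrays 1 to 6 it measured 5.91, 5.12, 5.14, 5.38, 5.44 and 5.60, at scores of 6.77, 5.09, 5.40, 4.76, 5.21 and 4.86. In the formerly obese group the highest score and the highest Vnn1 level were both in array 1. In the formerly obese-HFD group the highest Vnn1 level was in array 1, at a score of 6.91. There the highest score, 6.94 in array 4, went with a Vnn1 level of 5.75, and the lowest Vnn1 level was in array 5, at a score of 6.78. In lean-HFD arrays 1 to 6 Vnn1 measured 5.37, 5.95, 6.79, 6.36, 6.98 and 5.99, at scores of 9.08, 9.95, 5.56, 9.77, 7.47 and 6.81. In lean arrays 1 to 6 it measured 4.79, 5.73, 5.13, 4.53, 4.46 and 4.74, at scores of 6.54, 5.69, 5.91, 8.17, 4.93 and 4.91. In these 2 groups, too, the highest score and the highest Vnn1 level were in different arrays. Without the 4 arrays with a score above 8 the averaged difference was 1.15 (adjusted p = 0.0196), and with the score as a covariate it was also 1.15 (adjusted p = 0.0652). Without the arrays high in brown adipocyte markers it was 0.98 and no longer called (adjusted p = 0.386). Over the 10 alternatives the adjusted p ran from 0.0108 to 0.386.

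**Figure D3:**
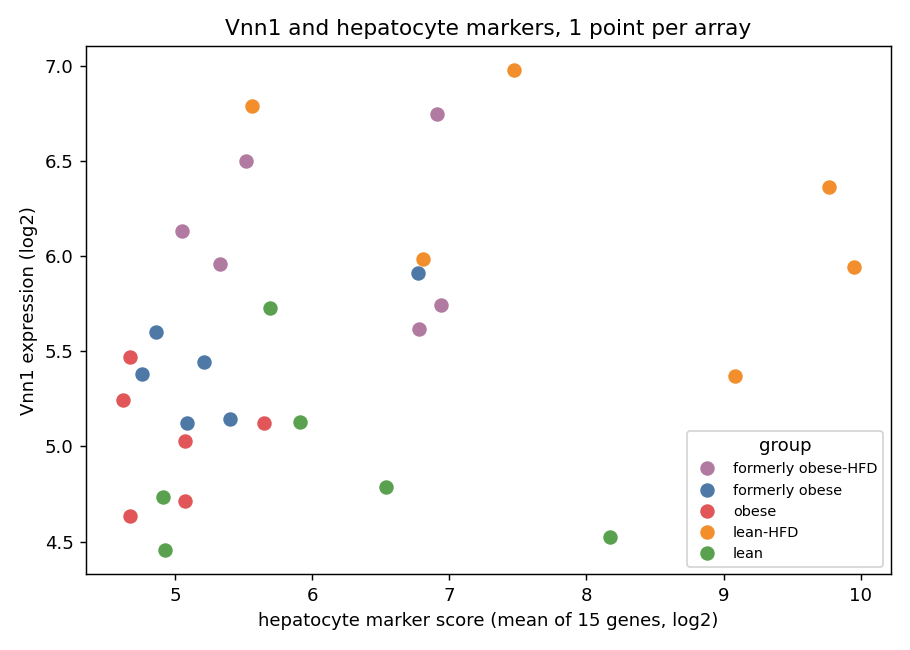
Vnn1 expression (log2) against the mean of 15 hepatocyte marker genes (log2), 1 point per array, coloured by group. Lean-HFD and formerly obese-HFD arrays lie between 5.37 and 6.98 at hepatocyte scores from 5.05 to 9.95. The arrays with the highest score of the formerly obese and lean groups, 6.77 and 8.17, lie at 5.91 and 4.53.

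Apart from Vnn1, 1 member differed by more than 1.3-fold with 48 h of HFD, Eci3 in formerly obese-HFD against formerly obese mice (-0.49 ± 0.32, 1.41-fold lower, adjusted p = 0.937, 5 of 6 arrays below the formerly obese mean), and it did not pass. In formerly obese-HFD against formerly obese mice 0 members and 0% of probe sets were called, with 2207 probe sets at an unadjusted p under 0.05, and the next smallest p values belonged to Pdk4 (0.35 ± 0.17, adjusted p = 0.934) and Acox3 (0.29 ± 0.15, adjusted p = 0.934). In lean-HFD against lean mice 0 members and 0.00242% of probe sets were called, with 2440 at an unadjusted p under 0.05. The next smallest p values were those of Ppara (0.24 ± 0.18, adjusted p = 0.903) and Ehhadh (0.24 ± 0.19, adjusted p = 0.910). The 17 mitochondrial members differed by at most 0.21 in formerly obese mice and 0.12 in lean mice, on the log2 scale, with medians of 0.02 and 0.01. All 7 regulatory differences were above 0 in lean mice, from 0.01 to 1.34, and 5 of 7 in formerly obese mice. None of the 68 other pathway genes was called in either history.

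Both groups with 48 h of HFD were also set against each other, as the test of history under the same diet. In formerly obese-HFD against lean-HFD mice 0 members and 0% of probe sets were called, with 3418 probe sets at an unadjusted p under 0.05. Pdk4 measured 8.46, 8.83 and 8.98 in formerly obese-HFD arrays, against 7.62, 8.11 and 8.81 in lean-HFD arrays. The formerly obese-HFD arrays were close together and all above the lean-HFD mean, a difference of 0.62 ± 0.20 (1.54-fold, adjusted p = 0.472) that only the looser rule called, as it did 1.5% of all probe sets. Without the lean-HFD arrays high in hepatocyte markers it was 0.30 (adjusted p = 0.834), and its adjusted p ran from 0.312 to 0.834 over the alternatives. Eci3 measured 5.41, 6.42 and 7.63 in formerly obese-HFD arrays, against 6.60, 7.22 and 7.70 in lean-HFD arrays. Its formerly obese-HFD arrays were spread over more than 2 log2 units, and the difference of -0.81 ± 0.33 did not pass (adjusted p = 0.566). Hadhb followed, at 0.20 ± 0.09 (adjusted p = 0.596).

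Obese mice were finally compared with lean-HFD mice, that is 27 weeks of HFD with 48 h of it. The obese arrays are those of the comparisons above, so genes called again here are not a separate test. In obese mice 2 members were higher, Pdk4 and Angptl4, and 6 were lower, Eci3, Vnn1, Acot2, Ppara, Acot1 and Eci1. These 8 calls were 25.0% of the members, against 7.79% of all probe sets (4.64% higher and 3.16% lower). In 2 of 32 members, Acot2 and Ppara, the arrays did not overlap, against 5.37% of all probe sets. The calls were 5 of 7 regulatory, 2 of 17 mitochondrial and 1 of 8 peroxisomal members.

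Pdk4 was higher in obese mice by 1.17 ± 0.23 (2.24-fold, adjusted p = 0.00776), with obese 5 and lean-HFD 5 in contact, at 8.81 each. Angptl4 measured 8.03, 8.48 and 9.39 in lean-HFD arrays, where lean-HFD 5 alone reached the obese range, and was higher in obese mice by 0.86 ± 0.19 (adjusted p = 0.0153). Vnn1, at 4.63, 5.08 and 5.47 in obese arrays, overlapped with the lean-HFD arrays only through lean-HFD 1, and it was lower in obese mice by 1.20 on the log2 scale (-1.20 ± 0.25, adjusted p = 0.0106). Against lean mice, as given above, its difference was 0.14 ± 0.21.

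Ppara measured 4.71, 4.89 and 5.20 in obese arrays, against 5.24, 5.40 and 6.04 in lean-HFD arrays. Every obese array was below every lean-HFD array, by a narrow gap, and Ppara was 0.668 of its lean-HFD level (-0.58 ± 0.13, adjusted p = 0.0185). Acot1 measured 5.03, 5.26 and 5.75 in obese arrays, against 5.55, 5.80 and 6.39 in lean-HFD arrays. All obese arrays were below the lean-HFD mean, with some overlap, and Acot1 differed by -0.55 ± 0.15 (adjusted p = 0.0425). In the fit on all 30 arrays Acot1 lost its call at the same difference (adjusted p = 0.344). In lean mice the same gene spread between 4.52 and 6.45.

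Eci3 differed by -1.69 ± 0.37 (adjusted p = 0.0152) and Acot2 by -0.59 ± 0.12 (adjusted p = 0.00967) in obese against lean-HFD mice. Eci1, at 8.95, 9.27 and 9.51 in lean-HFD arrays, was lower in obese mice by 0.52 ± 0.13 on the log2 scale (-0.52, adjusted p = 0.0294), with an overlap through obese 1. Cpt1a, which varied between 7.78 and 8.39 in lean-HFD arrays, was higher in obese mice by 0.32 ± 0.11 but was not called (adjusted p = 0.115). Among the 68 other pathway genes 3 rose and 17 fell, together 29.4%, against 7.79% of all probe sets (4.64% higher and 3.16% lower).

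Several marker lists moved with this comparison. In obese against lean-HFD mice 15 of 15 hepatocyte genes fell, with a median of -3.39, as did 4 of 10 mature adipocyte genes (-0.36), 3 of 6 mesothelial genes (-0.71) and 1 of 7 skeletal muscle genes, while 6 of 8 macrophage genes (1.60) and 1 of 7 brown adipocyte genes rose. The part of macrophages, mesothelial cells and muscle in the result was not tested. Slc27a2, a fatty acid transporter and very long-chain acyl-CoA synthetase abundant in liver, was among the other pathway genes that fell (-2.50 ± 0.63, adjusted p = 0.0288). With the hepatocyte score as a covariate 2 members were called, Vnn1 (-1.73, adjusted p = 0.048) and Decr1, while Ppara differed by -0.17 (adjusted p = 0.734) and Pdk4 by 0.61 (adjusted p = 0.45). The other members that lost their calls in that fit differed by 0.75 for Angptl4, -1.69 for Eci3, -0.71 for Acot2, -0.79 for Acot1 and -0.52 for Eci1. Hepatocyte scores overlapped between these groups only through obese 4 (5.65) and lean-HFD 3 (5.56). The group and the score can therefore hardly be told apart in that fit. With lean-HFD 1, 2 and 4 left out instead, 8 members were called, Angptl4 being lost (0.73, adjusted p = 0.138) and Acox3 added. With the adipocyte score as a covariate Acadl was the 1 member called. The members that lost their calls there differed by 1.15 for Pdk4, 0.99 for Angptl4, -0.92 for Eci3 and for Vnn1, -0.57 for Acot2, -0.35 for Ppara, -0.82 for Acot1 and -0.03 for Eci1, with adjusted p between 0.192 and 0.957.

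Read by role, the mean of the mitochondrial members moved little between groups. In the comparisons that include obese mice, rises and falls offset each other in it. Regardless of sign, the median difference of these members was 0.16 to 0.19 in those comparisons, against 0.12 to 0.13 for all probe sets. In the other pairwise comparisons it was 0.05 to 0.07, against 0.09 to 0.10. The mean deviation of the 17 mitochondrial members from their means over 30 arrays had medians of -0.09 in formerly obese-HFD, 0.03 in formerly obese, -0.04 in obese, 0.06 in lean-HFD and -0.02 in lean arrays. The arrays within a group were further apart than these medians, from -0.31 in formerly obese 5 to 0.30 in formerly obese-HFD 6. The peroxisomal members had medians of -0.11, -0.03, -0.17, 0.12 and 0.10 in the same order of groups. Obese arrays ran from -0.44 in obese 6 to 0.17 in obese 1, with Eci3 as the member that differed most, and lean arrays from 0.01 to 0.21. The regulatory members had medians of 0.13, -0.05, 0.04, 0.10 and -0.21.

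In arrays high in brown adipocyte markers most mitochondrial members were high too, though by little in obese 4 and formerly obese 2. In lean 6, whose brown adipocyte score was 7.54, 16 of 17 mitochondrial members lay above the median of the other lean arrays, by a median of 0.30, and Pdk4 lay 1.29 above it. In formerly obese 6 it was 14 of 17, by a median of 0.18, in obese 4 14 of 17, by 0.09, and in formerly obese 2 11 of 17, by 0.08. Peroxisomal members did so less evenly, with 5 of 8 in lean 6 and in obese 4, 3 of 8 in formerly obese 6 and 2 of 8 in formerly obese 2. Formerly obese-HFD 6, the array with the highest mitochondrial deviation, had a brown adipocyte score of 5.78, and obese 1, at a deviation of 0.22, one of 5.82. Arrays with a hepatocyte score above 8 were set against the rest of their group in the same way. Lean-HFD 4, with a brown adipocyte score of 5.48, had 14 of 17 mitochondrial members above, by a median of 0.14. Lean 4 had 8, lean-HFD 1 had 3 and lean-HFD 2 had 7. With the 4 arrays high in brown adipocyte markers left out 5 members were called in obese against lean mice, Eci1 being lost (-0.36, adjusted p = 0.173). In formerly obese against obese mice 7 were called, Acot1 being added.

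**Figure D4:**
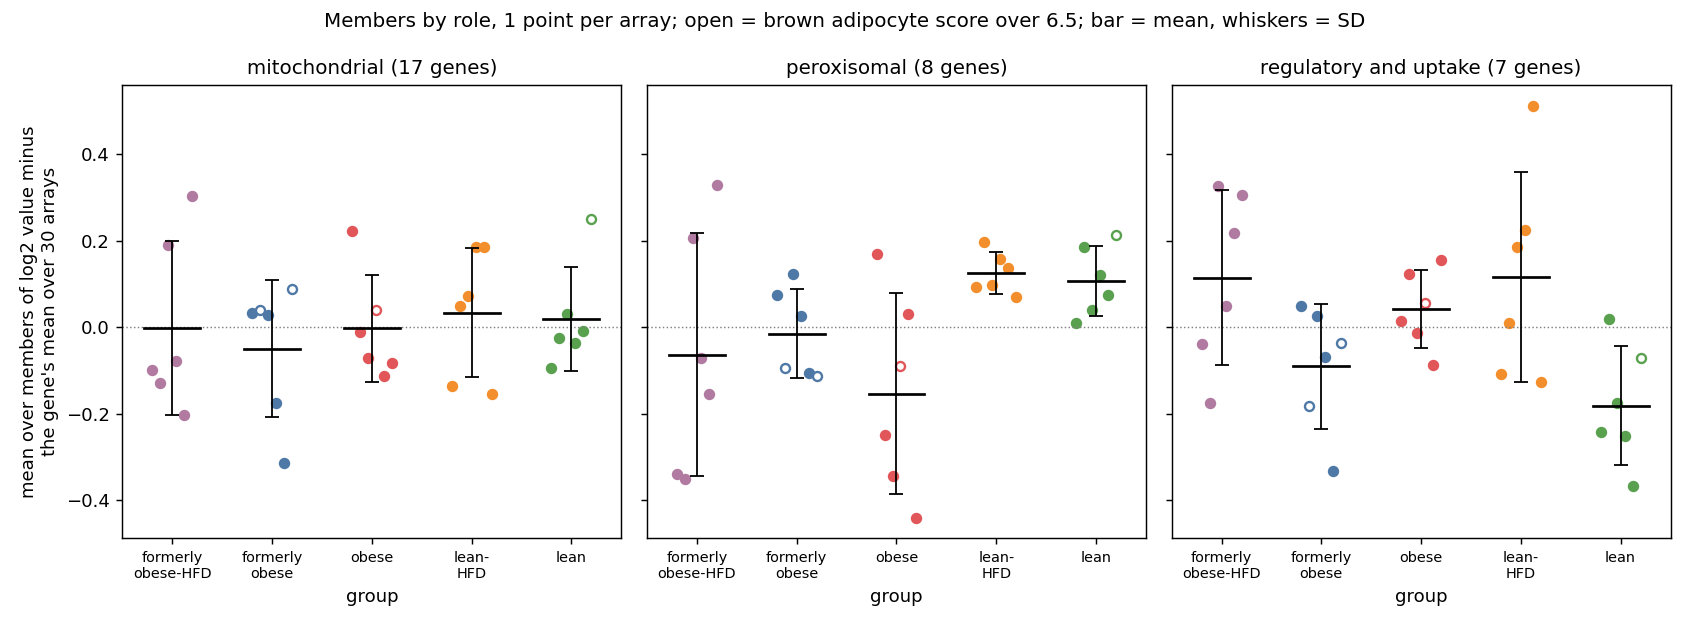
Mean deviation (log2) of the members of each role from their own averages over 30 arrays, 1 point per array by group, with open symbols for the 4 arrays with a brown adipocyte score above 6.5 and the mean (bar) and SD (whiskers) of each group. Mitochondrial members overlap between all groups, and peroxisomal members reach lowest in obese arrays, at -0.44.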

How the data were processed

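Total RNA of gWAT was labelled and hybridised by the authors to Affymetrix Mouse Gene 2.0 ST arrays. The deposited file holds 1 log2 value per probe set and array, made by the authors with Affymetrix Expression Console 1.4.1.46 (RMA with median polish and quantile normalization). They were used as deposited. Quantile normalization fixes the distribution of each array, so a shift shared by most genes is not visible, and the number of arrays limits the precision.

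Each pair of groups was fitted across all 41345 probe sets with limma 3.58.1 in R 4.3.3 (lmFit, eBayes, two-sided) on its 12 arrays, and the averaged effect of 48 h HFD and its interaction with history on 24 arrays. P values were adjusted by Benjamini-Hochberg over all probe sets. The thresholds are those of the study's methods for this tissue. The looser rule replaced the adjusted threshold by an unadjusted p under 0.01. Errors are SEs of the fit.

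Members and lists were chosen with earlier results of these data known. All 36 listed genes were eligible to be named, with the 3 smallest p where fewer than 3 were called. Marker scores are mean log2 values of a list's genes. Alternatives were 1 fit on all arrays, a replicate block, an intensity trend with robust priors, probe sets with 1 symbol, no fold and level filters, the looser rule, a hepatocyte covariate and each array left out. Leaving out arrays with a hepatocyte score above 8 or a brown adipocyte score above 6.5 and the adipocyte covariate were added after the data were seen. The labels name separate mice, and no scan or extraction batch was given in the sources used here. Scripts were tested on simulated data.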

Additional observations from a re-analysis of the deposited data

Results flagged for a closer look

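Of 160 sets of a member and a group, 15 had a single array far from the other 5 by a test for a lone value (Dixon's gap over range). Chance gives about 8 such sets, at 1 in 20. In lean 6 this held for Pdk4 (9.11, other lean arrays 7.54 to 7.99), Cpt2 (9.85), Hadha (10.31) and Etfdh (9.98), each of them high, in the array with the highest brown adipocyte score. In obese 1 it held for Slc25a20 (7.66), Crat (9.40), Eci1 (9.18, other obese arrays 8.52 to 8.75) and Ucp3 (6.70), each high, and this array had the highest adipocyte score of the obese arrays, at 11.04. In formerly obese-HFD 6 it held for Hadhb (6.34) and Acot2 (6.04, others 5.09 to 5.37), both high.

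The remaining lone arrays were Angptl4 in formerly obese 5 (7.05, low) and in lean-HFD 5 (9.39, high), Ucp3 in formerly obese 2 (5.51, low), Acox3 in lean-HFD 1 (8.00, high) and Acot1 in lean-HFD 6 (6.39, high). The array of Acox3 was 1 of the 3 lean-HFD arrays with a hepatocyte score above 8, and its part in that value was not tested. No member moved in opposite ways in the 2 histories in all arrays, and no interaction passed.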

How the results depend on the processing

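Under the fit on all arrays, the intensity trend, probe sets with 1 symbol, and no fold and level filters, the number of members called stayed within 1.5 times in every comparison, except that the fit on all arrays called 1 member in lean-HFD against lean mice, Vnn1 (adjusted p = 0.0649). The looser rule called 1 member in lean-HFD against lean, formerly obese-HFD against formerly obese (both Vnn1) and formerly obese-HFD against lean-HFD mice (Pdk4), which miss the adjusted threshold. The adipocyte covariate left 0 of 6 calls in obese against lean mice, with Eci1 reversed to 0.10 (adjusted p = 0.918), and 1 in obese against lean-HFD mice, where the hepatocyte covariate left 2. For the averaged 48 h effect, 0 members were called with the replicate block (Vnn1 1.01, adjusted p = 0.139) and 0 without the arrays high in brown adipocyte markers. The causes were not tested, except that the adipocyte score does not overlap between obese and lean arrays. The hepatocyte score overlaps between obese and lean-HFD arrays only through obese 4 and lean-HFD 3. Replicate numbers did not pair the arrays (correlations of same-numbered arrays from -0.23 to 0.41), and the block also lost Eci1 in obese against lean mice (adjusted p = 0.174) and changed no other call. With each array left out in turn, members called ran from 5 to 7 in obese against lean, 4 to 7 in formerly obese against obese (4 without formerly obese 4), 8 to 9 in obese against lean-HFD and 0 to 1 for the averaged effect, and stayed at 0 in the other 5 comparisons. A gene's other probe set of its own gave no value to compare, since Crat alone had 2 and it was not called in any comparison. Acox3 was also covered by 1 probe set that carries several gene symbols, which was left out by the rule and not compared. An outside measure of cell composition was not used here.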
